A study of Mus musculus with 8 samples.

Results

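Glycolysis and the pentose phosphate pathway are covered here by 31 genes, 24 of glycolysis with its sugar and lactate transporters and 7 of the pentose phosphate branch. They were picked by symbol, by a rule that uses no measured value, from the 17492 genes of the deposited table, and all 31 were among the 11700 genes with enough reads to test. The RNA was that of macrophages which had been differentiated in culture from the bone marrow of C57BL/6 mice. The medium of 4 libraries (serine/glycine-free) lacked both serine and glycine, and that of the 4 control libraries was normal. The labels give no stimulus, duration, animal age or glucose concentration, and nothing says whether libraries came from separate cultures, so p-values measure only the spread between these libraries, which may be technical.

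Glycolysis splits glucose into pyruvate in the cytosol, and lactate dehydrogenase and lactate transporters carry the product onward. The pentose phosphate pathway leaves it at glucose phosphate. Its oxidative arm makes NADPH, the reductant that regenerates glutathione, and its other arm exchanges carbons between sugar phosphates and returns them to glycolysis. Serine synthesis also branches off glycolysis, at the phosphoglycerate between the steps of Pgk1 and Pgam1. Macrophages are known to raise glycolysis when they are activated.

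The libraries held 17565291 to 18201599 estimated counts in all. Levels are given as CPM, a share of the library's counts on a scale corrected by the trimmed mean of M values. A gene with no count could have a level of up to 3 counts, or 0.165 to 0.171 CPM by library, which covers counting error only. All 12 pairs of libraries within a group differed by more than sampling noise (chi-square per degree of freedom 1.42 to 3.60). Both groups were apart on the first principal component (44.9% of the variance). The second (11.7%) set replicates 3 and 4 of the serine/glycine-free group at opposite ends. All 8 macrophage markers were present, with summed levels of 18889 to 19164 CPM without serine and glycine and 18909 to 19361 CPM in control. Of those 8, 4 were higher (Csf1r, Cd68, Mertk and Lyz2) and 4 lower (Itgam, Adgre1, Fcgr1 and Cd14), and their part in the results below was not tested. The sums hide such opposite shifts. Itgam averaged 1109 CPM without serine and glycine and 1694 CPM in control, and Csf1r 1258 and 946 CPM. The 7 neutrophil markers summed to 1.94 to 2.34 CPM without serine and glycine and 0.772 to 1.17 CPM in control, nearly all of it S100a8, the only one tested, which was higher. Markers of dendritic cells summed to at most 1.60 CPM without serine and glycine and 1.91 CPM in control, those of fibroblasts to 1.54 and 1.12 CPM, those of lymphocytes to 0.943 and 1.29 CPM, and those of mast and erythroid cells to at most 0.168 CPM in any library. Among the markers in the table, 0 were at a count of 0 in every library. In bulk samples, fewer cells of a type and less RNA per cell cannot be told apart.

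Without serine and glycine, most glycolytic enzymes were slightly higher, the transaldolase gene Taldo1 of the pentose phosphate branch was 1.46-fold higher, and 4 glycolysis genes were lower. Of the 31 genes, 18 rose, 4 fell and 9 did not pass an adjusted p of 0.05 (edgeR quasi-likelihood test, Benjamini-Hochberg adjustment over all genes tested). Over all tested genes, 33.2% passed, 15.9% higher and 17.3% lower. The 31 are abundant, so the share among all genes that averaged 50 CPM or more stands beside it: 48.6% passed, 16.8% higher and 31.8% lower, while of the 24 members at that level 15 rose, 3 fell and 6 did not pass. The 18 that rose were 15 of 24 glycolysis genes and 3 of 7 pentose phosphate genes, and the 4 that fell were all glycolysis genes. The median log2 change was 0.098 (0.14 once the trend with mean expression was taken out of each library) over the 31, against 0.0074 over all tested genes and -0.027 over those of at least 50 CPM. Only Aldoc moved by at least 1.5-fold, as did 3.6% of all tested genes. The groups did not overlap for 24 of the 31 members, against 30.6% of all tested genes. No such share was worked out for all genes of at least 50 CPM, where 19 of the 24 members did not overlap. Left out in turn, each library gave 17 or 18 higher and 4 lower, with 17 higher on leaving out serine/glycine-free replicate 3 or 4 or control replicate 1 or 2.

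**Figure D1:**
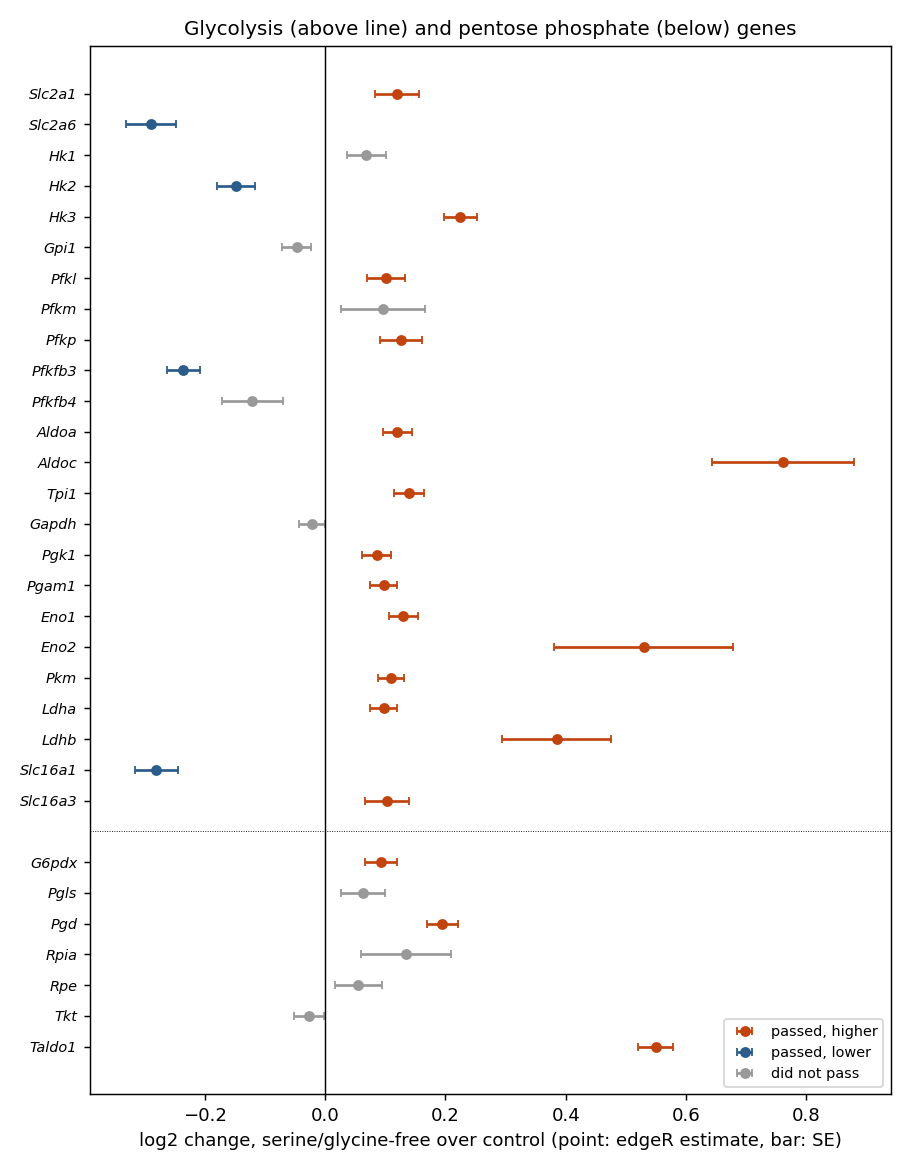
Log2 change of each gene in pathway order (serine/glycine-free over control), with its standard error from edgeR as a bar and the outcome of the test as colour. Taldo1 (0.55) and the low isoforms Aldoc (0.76), Eno2 (0.53) and Ldhb (0.38) lie far to the right, and Slc2a6, Hk2, Pfkfb3 and Slc16a1 are the points that passed on the left.

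Through their Entrez IDs, the GRCm38 annotation places Taldo1 (Entrez 21351, chromosome 7, 141392199 to 141402968), Pgd (Entrez 110208, chromosome 4, 149149991 to 149166771), Hk3 (Entrez 212032, chromosome 13, 55005985 to 55021385) and Aldoc (Entrez 11676, chromosome 11, 78322968 to 78327781) as protein-coding genes. It also does so for the 4 that fell, Slc2a6 (Entrez 227659, chromosome 2, 27021363 to 27027998), Hk2 (Entrez 15277, chromosome 6, 82725025 to 82774454), Pfkfb3 (Entrez 170768, chromosome 2, 11471433 to 11554077) and Slc16a1 (Entrez 20501, chromosome 3, 104638668 to 104658462). Of these 8, only Hk3 shared annotated exon bases with another gene (0.923%, with Unc5a on the opposite strand). Among the other members, the shared part was highest in Pgls, Rpe, Pkm, G6pdx, Gpi1 and Pfkm (10.7% to 20.6%), and whether counting used strand is not given in the sources used here, so reads of such overlaps cannot be assigned.

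The upstream sequences of the 4 genes that fell and of Taldo1 are shown because the 4 moved against most of the pathway and Taldo1 had the smallest adjusted p of the members. Sequences are from RefSeq on GRCm38.p6, the build named for the files, and all 31 genes had at least 1 promoter window. Each run is the upstream part of the window, 239 bases that end 12 bases before the transcript start, 5′ to 3′ on the gene's strand, with no annotated exon in any of the 5. Where a gene had several starts, the one with the longest such stretch was taken. Capitals mark matches on either strand to ACGTG, the core bound by hypoxia-inducible factors, or to TGACNNNGC, the core of the antioxidant response element bound by NRF2. The regions are chr2:27028010-27028248, minus strand for Slc2a6, chr6:82774466-82774704, minus strand for Hk2, chr2:11502102-11502340, minus strand for Pfkfb3 (a start inside the gene), chr3:104638414-104638652, plus strand for Slc16a1 and chr7:141391910-141392148, plus strand for Taldo1.
Slc2a6: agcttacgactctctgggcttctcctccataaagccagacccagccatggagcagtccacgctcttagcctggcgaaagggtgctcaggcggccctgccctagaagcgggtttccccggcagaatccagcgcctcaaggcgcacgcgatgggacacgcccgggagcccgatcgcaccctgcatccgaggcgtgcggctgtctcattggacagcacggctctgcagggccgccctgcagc
Hk2: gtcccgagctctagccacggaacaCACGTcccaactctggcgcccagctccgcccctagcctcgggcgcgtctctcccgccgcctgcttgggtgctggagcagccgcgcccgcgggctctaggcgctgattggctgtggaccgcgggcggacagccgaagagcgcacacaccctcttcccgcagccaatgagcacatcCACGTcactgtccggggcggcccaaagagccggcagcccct
Pfkfb3: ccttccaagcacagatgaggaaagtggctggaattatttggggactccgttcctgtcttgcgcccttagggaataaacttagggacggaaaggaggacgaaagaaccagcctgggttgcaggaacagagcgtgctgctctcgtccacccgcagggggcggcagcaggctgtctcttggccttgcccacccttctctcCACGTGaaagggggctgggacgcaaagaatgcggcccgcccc
Slc16a1: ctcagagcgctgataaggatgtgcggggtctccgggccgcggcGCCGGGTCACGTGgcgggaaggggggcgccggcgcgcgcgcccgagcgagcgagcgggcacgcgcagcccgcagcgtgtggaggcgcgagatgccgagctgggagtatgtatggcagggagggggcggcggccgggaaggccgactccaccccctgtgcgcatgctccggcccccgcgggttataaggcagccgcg
Taldo1: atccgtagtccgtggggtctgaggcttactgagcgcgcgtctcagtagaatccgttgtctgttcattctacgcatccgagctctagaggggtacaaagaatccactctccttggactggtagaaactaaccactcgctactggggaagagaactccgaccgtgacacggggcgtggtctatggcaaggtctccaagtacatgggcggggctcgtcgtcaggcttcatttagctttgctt

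Over the whole upstream part of each window, ACGTG on either strand was found at 12 of the 31 genes (38.7%), against 18.5% of the 27025 genes with a window. It was found at 3 of the 4 genes that fell (Hk2, Pfkfb3 and Slc16a1), at 8 of the 18 that rose and at 1 of the 9 that did not pass. The E-box CACGTG, which contains ACGTG on both strands, was found at 4 of the 31 (Ldha, Pfkfb3, Pfkm and Slc16a1; 12.9%, against 6.86% of genes). TGACNNNGC was found at Aldoa, G6pdx, Hk1 and Slc16a1 (12.9%, against 11.5% of genes), and in none of the windows of Taldo1 and Pgd. In Slc16a1 it runs into the E-box, so both lie in 1 block of capitals. These are matches of letters only and show no binding. The 27025 genes, with 32851 windows, outnumber the 17492 genes of the deposited table. The members were not matched to them for expression or number of windows.

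Glucose enters cells through transporters of the GLUT family. Slc2a1, which encodes the basal transporter GLUT1, had 72.6, 72.3, 71.4 and 74.2 CPM without serine and glycine, against 68.2, 66.2, 68.6 and 64.2 CPM in control libraries (log2 change 0.12, SE 0.036, adjusted p = 0.0084). Every serine/glycine-free library was above every control library, by a margin that is small beside the level. Slc2a6, which encodes GLUT6, a hexose transporter found on internal membranes of macrophages, went the other way, with 41.9, 41.8, 42.1 and 44.2 CPM without serine and glycine, against 51.7, 53.8, 51.6 and 50.6 CPM in control libraries (log2 change -0.29, SE 0.042, adjusted p = 2.7e-07). Its groups did not overlap either. On TPM, the authors' value per transcript length, which lets genes be compared, the share of Slc2a1 in the summed level of both was 58.7, 58.6, 58.0 and 57.8% without serine and glycine, against 51.8, 50.1, 52.1 and 50.8% in control (difference 7.07 percentage points, exact permutation p = 0.0286, 0.0457 adjusted over the 8 shares). That p is the smallest that 4 libraries against 4 allow. The summed TPM of both was 91.4 ± 0.988 without serine and glycine and 97.7 ± 2.35 in control (SD, n = 4). Slc2a3, Slc2a8 and Slc2a9, genes of further transporters, are not in that sum. Slc2a3 had a log2 change of -0.050 (adjusted p = 0.559).

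Hexokinases trap glucose in the cell as its phosphate. Hk3, the isoform typical of myeloid cells, rose: it had 279, 294, 277 and 287 CPM without serine and glycine, against 238, 247, 248 and 240.5 CPM in control libraries (log2 change 0.22, SE 0.027, adjusted p = 4.2e-09). The lowest serine/glycine-free library, at 277 CPM, was well above the highest control, at 248 CPM. Hk2, the inducible isoform that binds mitochondria, fell, with 103, 105, 97.0 and 105 CPM without serine and glycine, against 114, 114, 113 and 114 CPM in control libraries (log2 change -0.15, SE 0.032, adjusted p = 2.8e-04). Its upstream stretch holds ACGTG at 2 places, as shown above, and ACGTG was also found at Hk3, which rose. For Hk2, control libraries were tightly grouped, and replicate 3 without serine and glycine was the lowest of the 8. Hk1, the widely expressed isoform, averaged 103 ± 1.75 CPM without serine and glycine and 98.5 ± 2.0 CPM in control (SD, n = 4; log2 change 0.069, adjusted p = 0.0958) and did not pass, although it did once the trend with gene length (0.091, adjusted p = 0.0128) or with mean expression (0.098, adjusted p = 0.0156) was taken out of each library. Per length, Hk3 made up 66.7 ± 0.185% of the 3 hexokinases without serine and glycine and 62.7 ± 0.536% in control, and Hk2 13.7 ± 0.316% and 16.7 ± 0.327% (SD, n = 4 each). Hk1 was the isoform set for the test of the balance, and its share was lower without serine and glycine (difference -0.990 percentage points, exact permutation p = 0.0286, 0.0457 adjusted over the 8 shares). Gpi1, the isomerase of the next step, averaged 489 ± 6.17 CPM without serine and glycine and 505 ± 10.4 CPM in control (log2 change -0.047, adjusted p = 0.130) and did not pass. In CPM, the groups of neither Gpi1 nor Hk1 overlapped, although neither gene passed.

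Phosphofructokinase commits sugar to glycolysis. Pfkp, its platelet-type subunit gene, had 103, 100.1, 100.4 and 106 CPM without serine and glycine, against 96.0, 89.4, 98.8 and 90.6 CPM in control libraries (log2 change 0.13, SE 0.035, adjusted p = 0.0038), and rose. Fractional counts were estimated for it in 62.5% of libraries, and how far its reads were shared with other loci was not tested. Pfkl, the liver-type subunit gene, also rose and averaged 116 ± 2.99 CPM without serine and glycine and 108 ± 2.56 CPM in control (SD, n = 4; log2 change 0.10, SE 0.032, adjusted p = 0.0103). Pfkm, the muscle type, was well below both, at 15.4 ± 1.30 CPM without serine and glycine and 14.4 ± 0.832 CPM in control (log2 change 0.096, adjusted p = 0.313), and did not pass. Pfkl made up 48.5 ± 0.649% of the summed TPM of the 3 without serine and glycine and 49.4 ± 1.76% in control, a difference within the spread of the libraries (exact permutation p = 0.457, adjusted p = 0.457).

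Pfkfb3 encodes the bifunctional enzyme that makes the sugar bisphosphate activating phosphofructokinase, and so stands upstream of that step. It fell, with 337, 333, 319 and 311 CPM without serine and glycine, against 375, 376, 388 and 393 CPM in control libraries (log2 change -0.24, SE 0.027, adjusted p = 1.5e-09). All 4 serine/glycine-free libraries were below all control libraries. The E-box found at Ldha, which rose, was also found at Pfkfb3, where it lies before 1 of the gene's starts, as shown above. Its relative Pfkfb4 averaged 25.9 ± 0.434 CPM without serine and glycine and 28.1 ± 0.824 CPM in control (SD, n = 4; log2 change -0.12, adjusted p = 0.0616) and did not pass, although its groups did not overlap and it passed with the trend with mean expression removed (-0.13, adjusted p = 0.0369). Pfkfb3 supplied 90.1 ± 0.427% of the TPM of both without serine and glycine and 90.8 ± 0.414% in control (exact permutation p = 0.114, adjusted p = 0.131), and the groups overlapped. That sum leaves out Pfkfb2, which is no member. Pfkfb2 averaged 36.1 ± 2.06 CPM without serine and glycine and 36.5 ± 2.38 CPM in control, more than Pfkfb4.

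**Figure D2:**
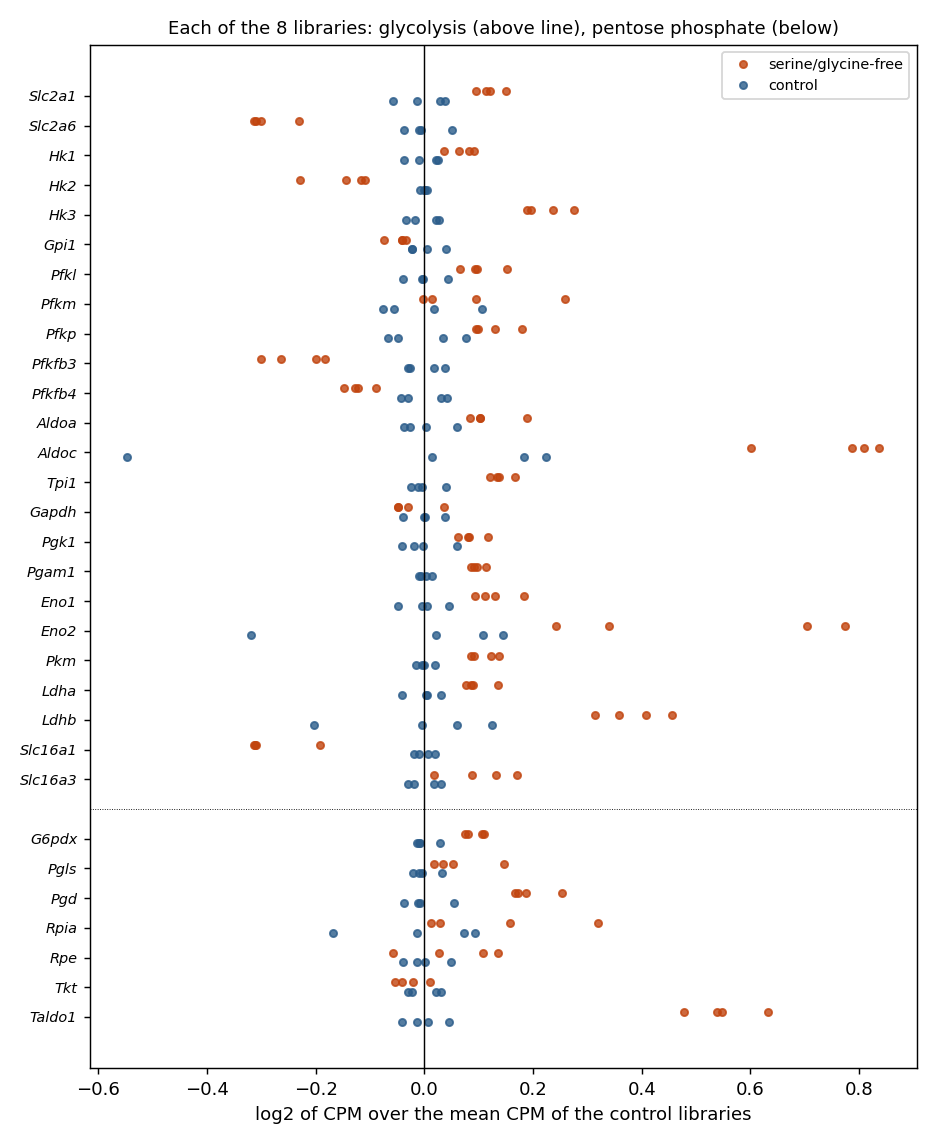
CPM of each of the 8 libraries over the mean of the control libraries, on a log2 scale, with 1 row per gene. Taldo1, Hk3 and Pgd of the serine/glycine-free libraries lie to the right of all control libraries and Slc2a6, Pfkfb3 and Slc16a1 to the left, while those of Gapdh and Tkt overlap with control.

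From aldolase to lactate dehydrogenase, each step was dominated by 1 abundant enzyme gene, and 7 of those 8 genes rose by 6.13% to 10.2%. Aldoa, the main aldolase, had 1509.7, 1490.2, 1509 and 1603 CPM without serine and glycine, against 1465, 1408, 1369 and 1381 CPM in control libraries (log2 change 0.12, SE 0.024, adjusted p = 1.2e-04). Tpi1, triosephosphate isomerase, had 359, 356, 359.9 and 367 CPM without serine and glycine, against 336, 326, 322 and 325 CPM in control libraries (log2 change 0.14, SE 0.025, adjusted p = 1.7e-05). In both, all serine/glycine-free libraries lay above all control libraries. Gapdh, the dehydrogenase often used as a reference gene, was the exception. It averaged 2826 ± 79.3 CPM without serine and glycine and 2869 ± 62.7 CPM in control (SD, n = 4; log2 change -0.022, adjusted p = 0.490), its groups overlapped in CPM, and its estimated counts were fractional in all 8 libraries. On TPM its groups just failed to overlap, with the highest serine/glycine-free library at 4139 TPM and the lowest control at 4142 TPM. With the trend with gene length removed it passed as lower (-0.073, adjusted p = 0.0011), and with the trend with mean expression removed its estimate turned to 0.021 (adjusted p = 0.509).

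Pgk1 and Pgam1 lie on either side of the phosphoglycerate from which serine is made. Pgk1, phosphoglycerate kinase, had 622, 598, 606 and 607 CPM without serine and glycine, against 573, 566, 558 and 597 CPM in control libraries (log2 change 0.086, SE 0.025, adjusted p = 0.0052). Control replicate 4 came close to the lowest serine/glycine-free library, replicate 2. Pgam1, phosphoglycerate mutase, had 701, 698, 703 and 712 CPM without serine and glycine, against 659, 664, 653 and 655 CPM in control libraries (log2 change 0.098, SE 0.023, adjusted p = 6.0e-04), with a wide gap between groups for its spread. Eno1, the main enolase, had 844, 855, 834 and 887 CPM without serine and glycine, against 806, 756, 779 and 784 CPM in control libraries (log2 change 0.13, SE 0.024, adjusted p = 3.2e-05). All 8 libraries held estimated counts of it that were not whole, and how far its reads were shared with other loci was not tested. Pkm, pyruvate kinase, whose splice forms the table does not separate, had 2321, 2380.2, 2329.6 and 2407 CPM without serine and glycine, against 2186, 2179.7, 2217 and 2165 CPM in control libraries (log2 change 0.11, SE 0.021, adjusted p = 4.8e-05). Ldha, which makes lactate, had 866, 873, 870.2 and 901 CPM without serine and glycine, against 822, 824, 798 and 838 CPM in control libraries (log2 change 0.097, SE 0.023, adjusted p = 8.3e-04). For each of these genes all 4 serine/glycine-free libraries were above all 4 control libraries in CPM, yet no rise exceeded 9.42%. On TPM the groups of Pgk1 overlapped, with control replicate 4 at 646 TPM and serine/glycine-free replicate 4 at 626 TPM. With the length trend removed, the 7 rises were smaller, with log2 changes of 0.058 (Pgk1) to 0.10 (Tpi1), and all passed.

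Beside these, the members Aldoc, Eno2 and Ldhb, low isoforms of 3 steps, rose more in proportion. Eno3, the muscle enolase, which is no member, did not pass and its groups overlapped, at 7.02 ± 0.496 CPM without serine and glycine and 6.14 ± 1.04 CPM in control (SD, n = 4; log2 change 0.19, adjusted p = 0.158). Aldoc, the aldolase known from brain, had 7.34, 7.60, 7.46 and 6.46 CPM without serine and glycine, against 4.97, 4.30, 2.91 and 4.84 CPM in control libraries (log2 change 0.76, SE 0.12, adjusted p = 2.0e-06), on 113 to 137 counts without serine and glycine and 52 to 89 in control. Control replicate 3 was the lowest, and the groups did not overlap. Eno2, the enolase known from neurons, had 3.07, 4.44, 3.28 and 4.23 CPM without serine and glycine, against 2.79, 2.87, 2.63 and 2.08 CPM in control libraries (log2 change 0.53, SE 0.15, adjusted p = 0.0044), on 56 to 80 counts without serine and glycine and 37 to 52 in control. Ldhb, the lactate dehydrogenase subunit known from heart, had 8.6, 9.21, 8.90 and 8.34 CPM without serine and glycine, against 7.32, 7.0, 5.83 and 6.69 CPM in control libraries (log2 change 0.38, SE 0.091, adjusted p = 8.2e-04). Replicates 2 and 4 of the serine/glycine-free group held the higher Eno2 values, and replicates 1 and 3 were nearer to control, and in neither gene did the groups overlap.

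The shares of these isoforms in their steps stayed small. Within the summed TPM of Aldoa and Aldoc, the share of Aldoa was 99.74, 99.73, 99.73 and 99.78% without serine and glycine, against 99.82, 99.84, 99.89 and 99.81% in control (difference -0.0921 percentage points, exact permutation p = 0.0286, 0.0457 adjusted over the 8 shares). For Ldha and Ldhb, the share of Ldha was 98.74, 98.67, 98.71 and 98.83% without serine and glycine, against 98.88, 98.92, 99.08 and 98.99% in control (difference -0.230 percentage points, exact permutation p = 0.0286, 0.0457 adjusted over the 8 shares). In both steps the share of the main isoform was lower in every serine/glycine-free library than in any control library. For Eno1 and Eno2 alone, without Eno3, the share of Eno1 was 99.77, 99.66, 99.74 and 99.69% without serine and glycine, against 99.78, 99.75, 99.79 and 99.82% in control (difference -0.0722 percentage points, exact permutation p = 0.0571, 0.0762 adjusted over the 8 shares), with serine/glycine-free replicate 1 inside the control range. Computed from counts rather than per length, the Hk1 share did not pass (adjusted p = 0.163). The shares of Slc2a1, Slc16a1, Aldoa and Ldha still had the smallest exact permutation p possible (0.0286), whose adjusted value was then 0.0571 because fewer of the 8 shares reached it. The step totals were led by the main isoform: aldolase summed to 1994 ± 28.7 TPM without serine and glycine and 1875 ± 41.6 TPM in control (SD, n = 4).

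**Figure D3:**
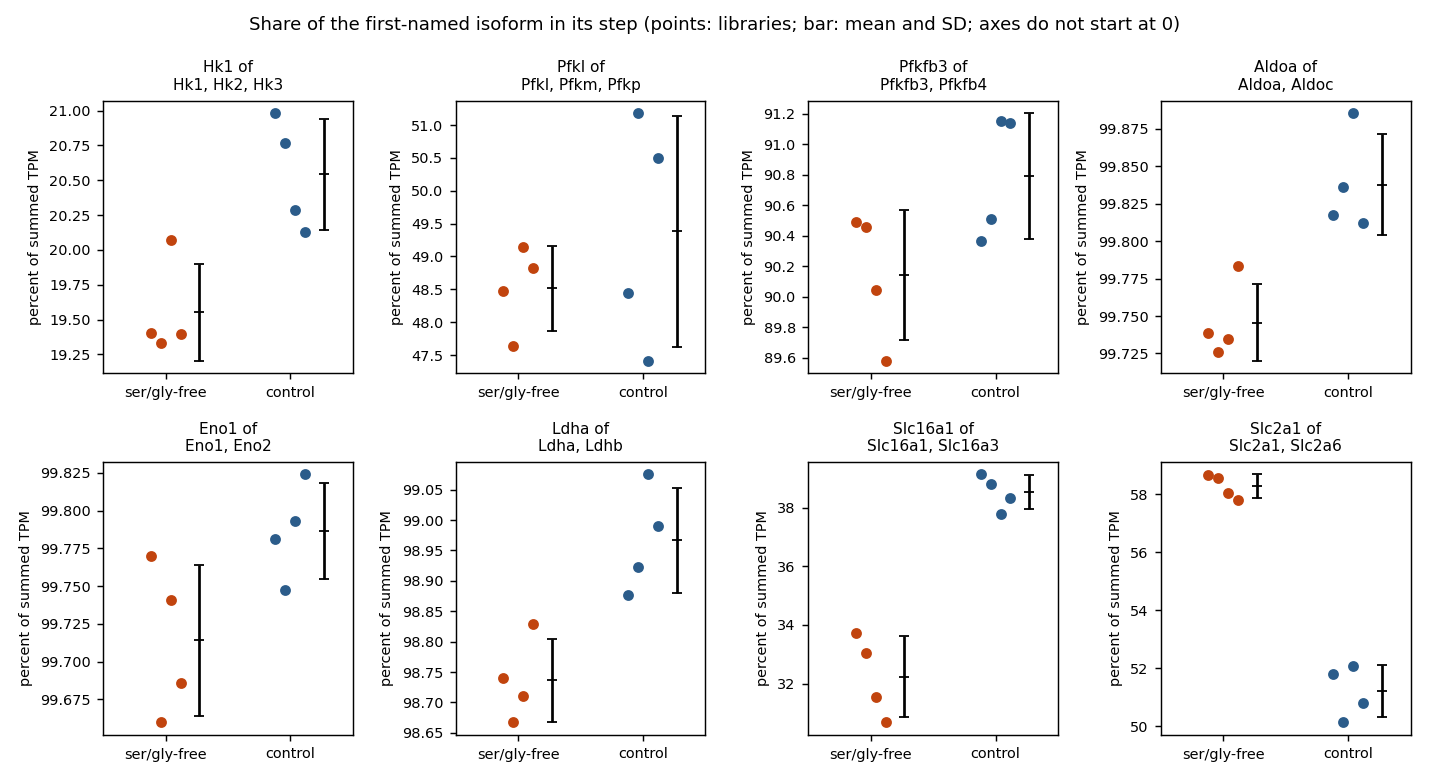
Share of the first-named isoform in the summed TPM of the members of its step, in percent, for 8 steps. Libraries are points, the mean and SD are bars, and axes do not start at 0. Isoforms that are no members, such as Pfkfb2, Slc2a3 and Eno3, are not in the sums. The largest gaps are those of Slc2a1 (58.3% without serine and glycine, 51.2% in control) and Slc16a1 (32.2% and 38.5%), and for Pfkl the groups overlap.

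Lactate leaves and enters cells through monocarboxylate transporters. Slc16a1, which encodes MCT1, fell, with 76.4, 70.4, 70.2 and 70.3 CPM without serine and glycine, against 88.5, 86.7, 86.2 and 87.7 CPM in control libraries (log2 change -0.28, SE 0.036, adjusted p = 1.8e-08). Its upstream stretch, shown above, holds both motifs, and ACGTG was also found at Slc16a3, which rose. For Slc16a1, replicate 1 of the serine/glycine-free group was above its other 3, and all 4 were below control. Slc16a3, which encodes MCT4, the exporter of glycolytic cells, averaged 79.5 ± 3.58 CPM without serine and glycine and 74.0 ± 1.52 CPM in control (SD, n = 4; log2 change 0.10, SE 0.037, adjusted p = 0.0259). Its groups overlapped, and its call was lost without any of serine/glycine-free replicates 3 and 4 and control replicates 1 and 2 (adjusted p up to 0.0905) and with DESeq2 (adjusted p = 0.0715). The share of Slc16a1 in the TPM of both was 33.7, 33.0, 31.5 and 30.7% without serine and glycine, against 39.1, 38.8, 37.8 and 38.3% in control (difference -6.28 percentage points, exact permutation p = 0.0286, 0.0457 adjusted over the 8 shares). Bsg, which encodes the chaperone basigin that brings both to the cell surface, rose and averaged 267 ± 12.1 CPM without serine and glycine and 237 ± 6.40 CPM in control (log2 change 0.17, SE 0.029, adjusted p = 8.7e-06).

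In the oxidative arm of the pentose phosphate pathway, both dehydrogenases that make NADPH rose. G6pdx, the entry enzyme, had 258, 254, 253 and 259 CPM without serine and glycine, against 245, 238, 239 and 238 CPM in control libraries (log2 change 0.093, SE 0.026, adjusted p = 0.0044). Pgd, phosphogluconate dehydrogenase, had 412, 413, 417 and 437 CPM without serine and glycine, against 381, 365, 357 and 364 CPM in control libraries (log2 change 0.20, SE 0.026, adjusted p = 5.8e-08). In neither did the groups overlap, and the Pgd change was the larger. Pgls, the lactonase between them, averaged 79.2 ± 3.22 CPM without serine and glycine and 75.8 ± 1.23 CPM in control (SD, n = 4; log2 change 0.063, adjusted p = 0.180) and did not pass, and its estimate turned to -0.014 (adjusted p = 0.788) with the trend with gene length removed. The annotated exons of G6pdx share 13.6% of their bases with Ikbkg on the opposite strand and those of Pgls 20.6% with Fam129c on the same strand.

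In the arm that exchanges carbons, Taldo1 (transaldolase) had the smallest adjusted p of the 31 genes, with 296, 283, 298 and 316 CPM without serine and glycine, against 202, 205, 198 and 210.2 CPM in control libraries (log2 change 0.55, SE 0.029, adjusted p = 2.6e-19). The groups were far apart for their spread, and the log2 change lay between 0.52 and 0.57 with any library left out. Among all tested genes, 55 had a smaller adjusted p. The remaining genes of the arm did not pass. Tkt, the transketolase that works with Taldo1, averaged 425 ± 8.36 CPM without serine and glycine and 433 ± 9.11 CPM in control (SD, n = 4; log2 change -0.026, adjusted p = 0.457), and its estimate turned to 0.020 with the trend with mean expression removed. Rpia, the ribose phosphate isomerase, averaged 14.7 ± 1.48 CPM without serine and glycine and 13.4 ± 1.08 CPM in control (log2 change 0.13, adjusted p = 0.168), and Rpe, the epimerase, 71.0 ± 4.25 CPM without serine and glycine and 68.4 ± 1.76 CPM in control (log2 change 0.055, adjusted p = 0.297). Rpe, too, had fractional counts in all 8 libraries.

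Levels along the pathway spanned from Gapdh, at 4108 ± 28.6 TPM without serine and glycine and 4253 ± 74.8 TPM in control, to Eno2, at 2.68 ± 0.523 TPM without serine and glycine and 1.86 ± 0.256 TPM in control (SD, n = 4 each). Taldo1 had 469 ± 11.1 TPM without serine and glycine and 328 ± 8.27 TPM in control. Pgd had 387 ± 9.15 TPM without serine and glycine and 342 ± 8.53 TPM in control, so the 2 genes were nearer to each other in control. The 24 glycolysis genes together took 1.28 ± 0.0121% of all TPM without serine and glycine and 1.26 ± 0.00628% in control, and the 7 pentose phosphate genes 0.154 ± 0.00175% and 0.135 ± 0.00132% (SD, n = 4 each). Neither total overlapped between the groups, and Taldo1 made up most of the pentose phosphate difference.

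**Figure D4:**
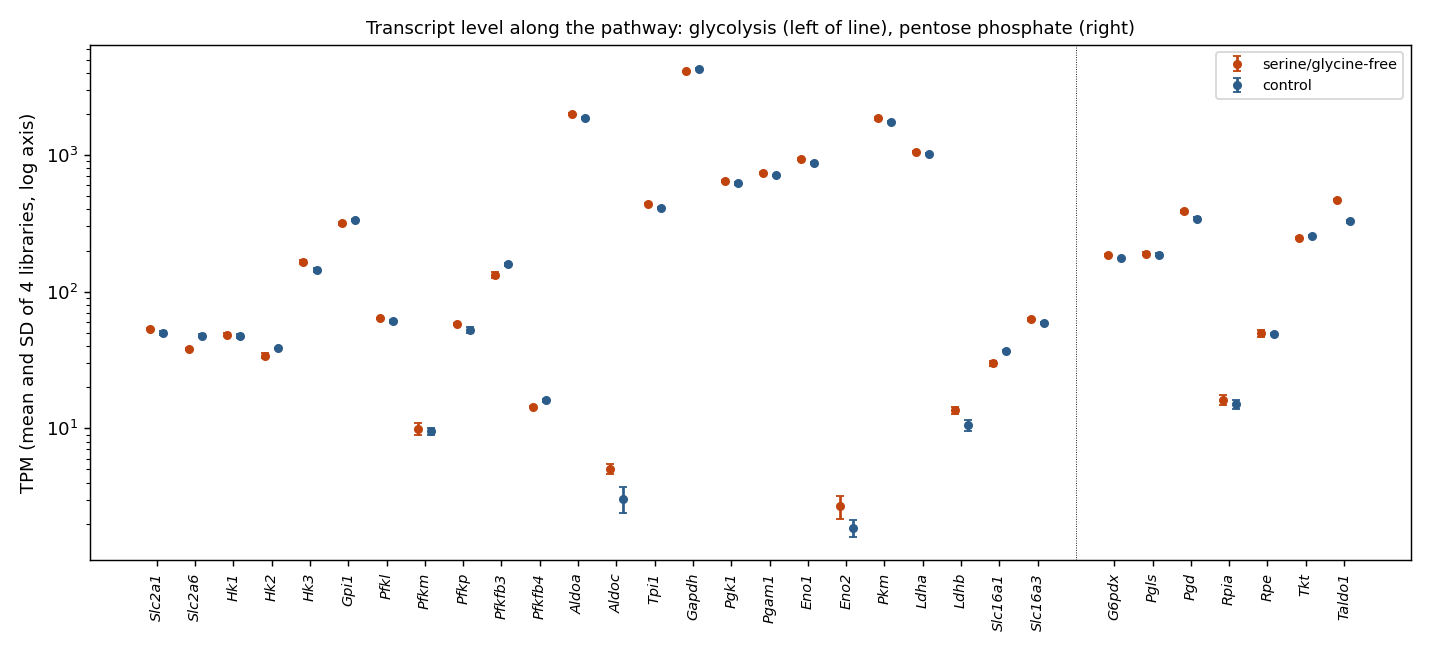
Mean TPM with SD of 4 libraries per group, on a log axis, along glycolysis (left of the line) and the pentose phosphate branch (right). Gapdh, Aldoa, Pkm and Ldha are the 4 highest, Aldoc and Eno2 the 2 lowest, and Taldo1 had 469 TPM without serine and glycine and 328 TPM in control.

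The surrounding pathways were described with lists of 89 genes in 6 groups, of which 76 were tested: 14 rose, 11 fell and 51 did not pass, so that 32.9% passed, against 33.2% of all tested genes. Their median log2 change was 0.012. Of 8 tested genes next to the pentose phosphate pathway, H6pd alone passed. It encodes the dehydrogenase that makes NADPH inside the endoplasmic reticulum, and averaged 53.1 ± 2.11 CPM without serine and glycine and 43.7 ± 1.24 CPM in control (SD, n = 4; log2 change 0.28, SE 0.042, adjusted p = 6.8e-07). Of 8 genes of other NADPH-producing enzymes, the cytosolic Idh1 (isocitrate dehydrogenase, log2 change 0.37, adjusted p = 4.3e-14) and Me1 (malic enzyme, log2 change 0.60, adjusted p = 1.3e-07) rose. Aldh1l2, a mitochondrial folate enzyme, fell (log2 change -0.43, adjusted p = 0.0015).

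Of 13 tested regulators and further isoforms, 3 rose and the other 10 did not pass. Galm, which interconverts the forms of free hexoses, had 15.6, 17.2, 15.8 and 14.9 CPM without serine and glycine, against 11.7, 10.1, 9.92 and 10.5 CPM in control libraries (log2 change 0.59, SE 0.073, adjusted p = 1.1e-08). The others were Bsg and Pgam5, a mitochondrial phosphatase of the mutase family (log2 change 0.11, adjusted p = 0.0452), whose call was lost on leaving out any library except serine/glycine-free replicate 4 (adjusted p up to 0.157), and also with DESeq2 (adjusted p = 0.128), with no filter on low counts (0.106), with the length trend removed (0.0863) and with a replicate term (0.0702). Tigar, which encodes the phosphatase that opposes Pfkfb3, did not pass (log2 change 0.11, adjusted p = 0.182). Of 12 genes at the entry of pyruvate into mitochondria, Pdp1, the phosphatase that activates pyruvate dehydrogenase, rose (log2 change 0.31, adjusted p = 2.6e-05), as did Mpc2 of the pyruvate carrier (log2 change 0.14, adjusted p = 0.0484), a call lost without any of serine/glycine-free replicates 2, 3 and 4 and control replicates 1, 2 and 4 (adjusted p up to 0.164). It was also lost with DESeq2 (adjusted p = 0.136), RLE scaling (0.0522), limma-voom (0.0534), no filter (0.0736), a replicate term (0.0557) and either trend removed (up to 0.442). Pdha1, a dehydrogenase subunit gene, fell (log2 change -0.097, adjusted p = 0.0154), a call lost without control replicate 2 (adjusted p = 0.0650) or with the expression trend removed (adjusted p = 0.110), on counts that were fractional in all 8 libraries. Pdk1, an inhibiting kinase gene, did not pass (log2 change 0.048, adjusted p = 0.444).

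Of 24 genes of glycogen, hexosamine and other sugar branches, 5 rose and 4 fell. Akr1b3, which encodes aldose reductase and turns glucose to sorbitol with NADPH, had 389.7, 387, 386 and 411 CPM without serine and glycine, against 263, 269, 255 and 273 CPM in control libraries (log2 change 0.57, SE 0.027, adjusted p = 2.8e-21). The groups did not overlap, as for Taldo1. Pgm2l1, which makes glucose bisphosphate, rose (log2 change 0.22, adjusted p = 6.4e-06), and the glycogen phosphorylase gene Pygb fell (log2 change -0.20, adjusted p = 9.5e-07). Of 11 regulatory factors, 1 rose and 5 fell. Txnip, which encodes a protein that curbs glucose uptake and follows glucose supply, had 302, 309, 314 and 297 CPM without serine and glycine, against 360.2, 365, 364 and 356 CPM in control libraries (log2 change -0.24, SE 0.026, adjusted p = 1.7e-10). Mlxip, which encodes the glucose-sensing factor MondoA that drives Txnip, fell as well (log2 change -0.31, adjusted p = 2.5e-10). Nfe2l2, which encodes NRF2, rose (log2 change 0.12, adjusted p = 1.5e-04), while Hif1a, the gene of the hypoxia-inducible factor, did not pass (log2 change -0.042, adjusted p = 0.299). Whether any of these factors acts on the members was not tested.

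**Figure D5:**
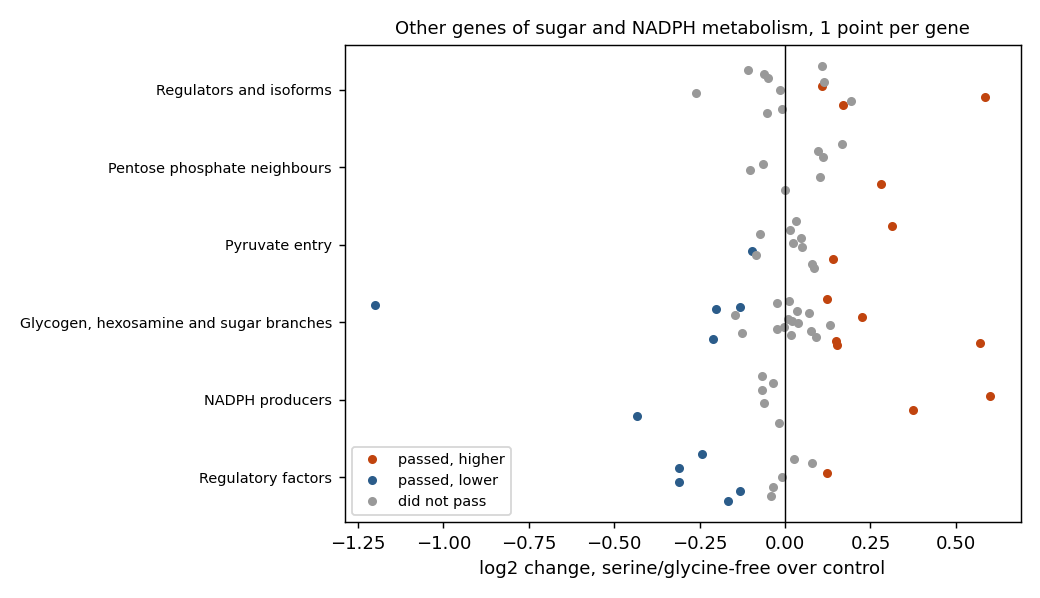
Log2 change (serine/glycine-free over control) of the 76 tested genes of surrounding pathways, 1 point per gene in 6 groups, coloured by the outcome of the edgeR test. Galm, Akr1b3, Me1 and Idh1 are the points farthest right, and most genes of each group except the regulatory factors did not pass.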

How the data were processed

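Polyadenylated RNA of 8 libraries, 4 per group, was sequenced from cultured macrophages. Per the submitters' processing notes, BWA, Bowtie2, RSEM and the build GRCm38.p6 were used, while their versions and roles, and the strand, are not given in the sources. The authors deposited 1 table with estimated counts, FPKM and TPM per gene and library. Between 8.06% and 8.47% of the deposited estimated counts were not whole (tolerance 1e-06), and all were rounded before testing. The deposited TPM values (scaled by transcript length and library) were used for levels and isoform shares, and the deposited FPKM values (scaled by length and fragments) for 1 alternative. The authors' averaged columns were not used.

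Genes passing edgeR's filter (minimum count 10, total 15) were scaled by TMM and tested with edgeR 4.0.16 (quasi-likelihood, R 4.3.3), with p-values adjusted over all 11700 genes tested. CPM are on the TMM scale. The common coefficient of variation between replicates, beyond counting error, was 2.78%. Isoform shares were compared by exact two-sided permutation of the 8 libraries (70 splits, smallest p 0.0286). DESeq2 1.42.0, limma 3.58.1 (voom), other scalings and filters, a replicate term, trends with gene length or mean expression taken out of each library (lowess span 0.3) and leaving out each library were the alternatives. Tests were checked on simulated data. Same-numbered libraries did not deviate together, so the main test has no replicate term.

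The members' rule used no measured value, but members, lists and alternatives were chosen with earlier results of these data known. Up to 20 members past the threshold, those with the smallest adjusted p, are given per library and the rest as group means. Of each list of surrounding genes, the 3 that passed with the smallest adjusted p are named, with Tigar, Txnip, Pdk1, Hif1a, Me1, H6pd and Slc2a3 whatever their values. Nothing was analysed here on protein or metabolite levels.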

Additional observations from a re-analysis of the deposited data

Results flagged for a closer look

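In 78 groups of 4 libraries (the CPM of each member and the isoform shares), the gap of the highest or lowest library to the nearest of the others was set against the whole range, by Dixon's test at its 95% critical value. It was passed in 5, and chance alone gives about 1 in 20 groups. Slc2a6 had 44.2 CPM in serine/glycine-free replicate 4, with its other 3 libraries at 41.8 to 42.1 CPM. Gpi1 had 479.6 CPM in serine/glycine-free replicate 1, with the other 3 at 491 to 493 CPM. Slc16a1 had 76.4 CPM in serine/glycine-free replicate 1, with the other 3 at 70.2 to 70.4 CPM, and all were below the control libraries. G6pdx had 245 CPM in control replicate 1, with the other 3 at 238 to 239 CPM. The share of Hk1 among the hexokinases was 20.1% in serine/glycine-free replicate 3, with the other 3 at 19.3% to 19.4%.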

How the results depend on the processing

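Of the 557 values of single members under the alternatives, 542 kept their direction and side of the threshold, 7 lost the call, 4 gained one and 4 turned direction, and 23 of the 31 members had none of these. The turned values, none of them called, were Pgls at -0.014 with the length trend removed and Gpi1 at 0.00045, Gapdh at 0.021 and Tkt at 0.020 with the expression trend removed. The members' median was 0.14 with the expression trend removed. Fewer than the 14 surrounding genes, 9, were higher at an adjusted p under 0.01. Of the isoform shares, those computed from counts were Hk1 -0.549, Aldoa -0.170, Ldha -0.179, Slc16a1 -6.64 and Slc2a1 6.81 percentage points. Of these, Hk1 did not pass (adjusted p = 0.163), and the other 4, at the smallest p the design allows (0.0286), could not pass once fewer of the 8 shares reached it (adjusted p = 0.0571). The cause of the other shifts was not tested.

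With each library left out, 17 to 18 members were higher and 4 to 4 lower, with a median of 0.088 to 0.11, and 10 to 17 surrounding genes were higher and 10 to 12 lower. The difference in share lay between -0.105 and -0.0762 points for Aldoa, -0.0908 and -0.0541 for Eno1, -1.16 and -0.842 for Hk1, -0.260 and -0.193 for Ldha, -0.791 and -0.461 for Pfkfb3, -1.53 and -0.270 for Pfkl, -6.77 and -5.76 for Slc16a1, and 6.71 and 7.36 for Slc2a1. The correlation of deviations between same-numbered libraries was -0.048, 0.061, 0.051 and -0.094, and only number 2 correlated best with its own. With the replicate block 18 members were higher and 4 lower, and 12 and 11 surrounding genes, with the calls of Mpc2 and Pgam5 lost. The exact sign-flip test of the shares within replicate numbers cannot go below p = 0.125.

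Rises of a few percent in most glycolytic enzymes were called with a common coefficient of variation of only 2.78% between libraries. It is edgeR's estimate over all tested genes, beyond counting error. Whether separate cultures would show these rises was not tested. Aldoc and Eno2 rest on at most 137 and 80 counts per library.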
